A study of Mus musculus with 2 samples.

Results

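Iron storage, sensing and export were described through 10 genes: Fth1, Ftl1 and Ftmt for ferritin, Aco1, Ireb2 and Fbxl5 for iron sensing, Ncoa4 for ferritin turnover, Pcbp1 and Pcbp2 for iron delivery, and Slc40a1 for export. They were taken from a fixed list of symbols, matched by gene identifier, and all 10 were found among the 69691 entries of each gene table, of which 21461 are nuclear protein-coding genes. Their 42 annotated transcripts stand among the 129984 entries of each transcript table. The study holds total RNA-seq of 2 libraries of CFU-Ery, the late erythroid progenitors that form small red cell colonies in culture. Both libraries belong to 1 group, biological replicates 1 and 2, made from primary cells of adult male C57BL/6J mice aged 5 to 6 weeks. Each started from 1 ng of RNA with spike-ins, and no treatment or control group is among the samples. The labels give both replicates the same donor record with separate biosamples, so the spread between them may be technical.

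Cells keep spare iron inside ferritin, a hollow protein shell of heavy chains, which oxidise the metal, and light chains, which help it mineralise. When iron is scarce, the iron regulatory proteins IRP1 (Aco1) and IRP2 (Ireb2) bind hairpins called iron responsive elements, which blocks translation of ferritin and ferroportin mRNA and stabilises transferrin receptor mRNA. Developing red cells take up large amounts of iron for haem, draw on ferritin through its autophagy receptor NCOA4, and can release iron through ferroportin, the product of Slc40a1.

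The iron responsive elements tie several of these genes together, so their sequences are shown first. The search ran on the transcript strand for a C, then 5 bases of any kind, the loop CAGTG with any base after it, and 5 more bases. The 5 bases before the 6-base loop had to pair with the 5 after it, with G-U pairs allowed. Of the 10 genes, 3 had a match (Fth1, Ftl1 and Slc40a1), all in the 5′ UTR. Among all 21951 protein-coding genes with transcript sequences, 1.68% had a match anywhere and 0.141% had one in an annotated 5′ UTR. Ferritin and ferroportin mRNAs were already known to carry such elements, so the matches locate known sites and test no enrichment. The other 7 genes had none in the transcripts searched. The sites below are from GENCODE M21 transcripts on GRCm38, written 5′ to 3′ as DNA letters, with the loop in capitals. The Fth1 site lies at chr19:9982732-9982760 on the plus strand, the Ftl1 site at chr7:45459779-45459807 on the minus strand and the Slc40a1 site at chr1:45925465-45925493 on the minus strand.
Fth1: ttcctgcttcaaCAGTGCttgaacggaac
Ftl1: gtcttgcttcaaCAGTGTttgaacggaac
Slc40a1: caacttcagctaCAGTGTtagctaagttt

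Both ferritin sites have the paired bases ttcaa and ttgaa around the loop, which reads CAGTGC in Fth1 and CAGTGT in Ftl1 and Slc40a1. For comparison, other mRNAs with a known iron responsive element were searched in the same way. Alas2, the first enzyme of haem synthesis in red cells, had a site in the 5′ UTR. Tfrc, the transferrin receptor, had 4 sites in the 3′ UTR, of which the first lies at chr16:32631219-32631247 and the last at chr16:32631710-32631738, both on the plus strand. These 2 are shown because the Tfrc elements act on mRNA stability and not on the start of translation.
Tfrc first site: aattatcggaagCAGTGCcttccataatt
Tfrc last site: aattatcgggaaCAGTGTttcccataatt
Epas1, Slc11a2, Cdc14a and Cdc42bpa had no match to these letters, from which nothing follows for binding.

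The ferritin shell genes stood far above the rest of the group. Values are deposited TPM, a relative transcript level scaled by gene length and by the library total. The libraries hold 143491647 (replicate 1) and 110634458 (replicate 2) expected counts, of which 3.29% and 3.70% fall on nuclear protein-coding genes and 81.2% and 79.0% on mitochondrial rRNA. Deposited TPM of a nuclear gene is therefore small, and 1 TPM corresponds to 43.1 and 37.0 TPM once values are rescaled over nuclear protein-coding genes alone. All 8 erythroid markers, among them Gata1, Klf1 and Slc4a1, reached 1 TPM in both libraries. Their TPM summed to 353 and 409. Neutrophil markers were also present, with 10 of 12 at 1 TPM or more in both libraries and sums of 577 and 781 TPM. Among macrophage markers 8 of 14 reached that level, with sums of 17.1 and 21.9 TPM, none at 0, and Siglec1 and Cd163 the lowest. B lymphoid markers summed to 15.5 and 17.7 TPM, with 3 of 5 at 1 TPM or more in both libraries, and megakaryocyte markers to 2.18 and 2.71 TPM, with 0 of 5. On the rescaled TPM every listed marker was at 1 or more in both libraries. That is 8 of 8 erythroid, 12 of 12 neutrophil, 14 of 14 macrophage, 5 of 5 B lymphoid and 5 of 5 megakaryocyte genes. The share of nuclear protein-coding genes was 12.6% at 1 deposited TPM and 44.6% at 1 rescaled TPM. How much of each iron gene's RNA came from those other cells was not tested, and in bulk RNA fewer cells of a type and less RNA per cell cannot be told apart.

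At 1 TPM or more in both libraries, 6 of the 10 genes were detected: Fth1, Ftl1, Ncoa4, Pcbp2, Slc40a1 and Pcbp1. By the same rule 12.6% of nuclear protein-coding genes were detected. On the rescaled TPM, 9 of the 10 were at 1 or more in both libraries, against 44.6% of nuclear protein-coding genes. The median of the 10 genes was 3.98 TPM in replicate 1 and 4.4 TPM in replicate 2, against 0.01 and 0.02 TPM over all nuclear protein-coding genes.

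**Figure D1:**
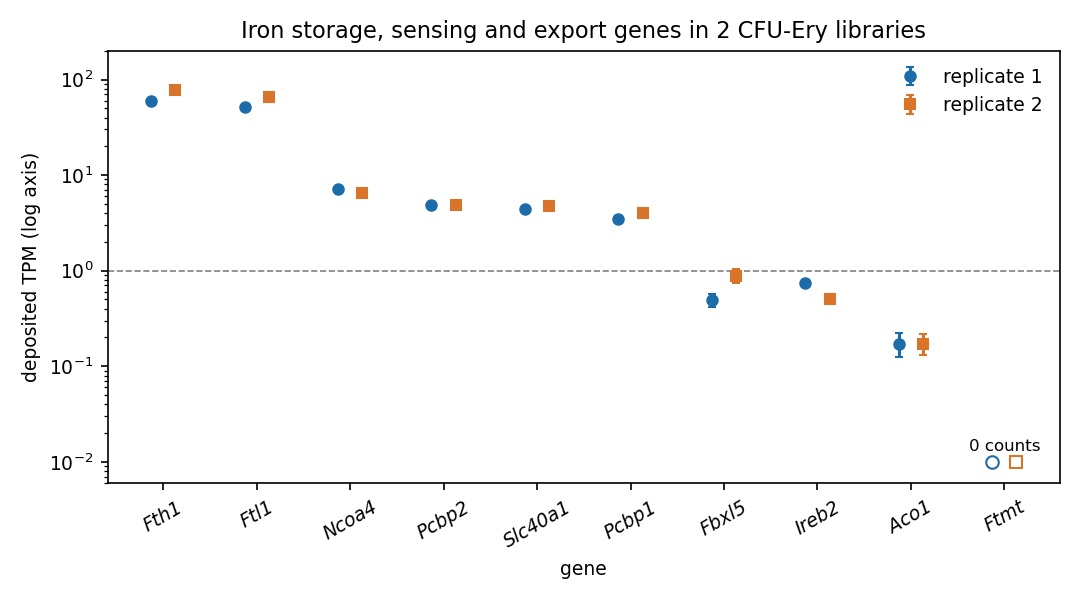
Deposited TPM (log axis) of the 10 genes in replicate 1 (circles) and replicate 2 (squares), ordered by mean, with 95% Poisson counting intervals as bars where wider than the symbol. Fth1 and Ftl1 lie above 51 TPM, 4 genes lie between 3.50 and 7.19 TPM, 3 lie below the dashed line at 1 TPM, and Ftmt (open symbols) had 0 counts in both libraries.

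Fth1 (ENSMUSG00000024661.6, chr19:9980598-9985098, plus strand) encodes the ferritin heavy chain, which has the ferroxidase activity of the shell. It had 59.8 TPM in replicate 1 and 78.2 TPM in replicate 2, from 5769 and 5873 expected counts. Its rank by mean TPM was 21 of 21461 nuclear protein-coding genes, and 24 and 19 in the separate libraries. On the rescaled TPM it averaged 2736 ± 222 (SD, n = 2).

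Ftl1 (ENSMUSG00000050708.10, chr7:45457944-45459884, minus strand) encodes the light chain. It had 51.5 TPM in replicate 1 and 65.6 TPM in replicate 2, from 4802 and 4794 expected counts, and averaged 58.5 ± 9.97 TPM (SD, n = 2), rank 29. Both ferritin genes were higher in replicate 2, and the ranges of the genes overlapped across libraries. Within each library Fth1 was the higher of the pair. The log2 ratio of Fth1 to Ftl1 in TPM was 0.22 (95% counting interval 0.16 to 0.27) in replicate 1 and 0.25 (0.20 to 0.31) in replicate 2, a mean of 0.23 ± 0.03 (SD, n = 2). These intervals, and those below, come from exact binomial limits on the counts and cover counting error only.

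The shell genes took most of the RNA of the group. Fth1 and Ftl1 together made up 83.8% and 86.9% of the summed TPM of the 10 genes (85.4 ± 2.16%, SD, n = 2). They made up 0.480% and 0.532% of the TPM of all nuclear protein-coding genes (0.506 ± 0.0368%, SD, n = 2), and all 10 genes together 0.572% and 0.612%. Between the libraries Fth1 and Ftl1 differed by a log2 TPM ratio of replicate 1 over replicate 2 of -0.39 and -0.35. The median of that ratio over 9018 nuclear protein-coding genes was -0.14. For the summed markers it was -0.21 for erythroid, -0.19 for B lymphoid, -0.31 for megakaryocyte, -0.36 for macrophage and -0.44 for neutrophil genes. The part of those markers' cells in the ferritin difference was not tested.

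Ftmt (ENSMUSG00000024510.5, chr18:52331549-52332996) encodes mitochondrial ferritin, which stores iron inside the organelle. It had 0 counts in both libraries, as did 42.1% of nuclear protein-coding genes. A count of 0 allows up to 3 counts, or 0.0173 TPM in replicate 1 and 0.0221 TPM in replicate 2. Transcripts below that level were not detectable at this depth. Of 8 listed ferritin relatives and ferritin receptors, 0 were detected, against 12.6% of nuclear protein-coding genes. On the rescaled TPM 0 were at 1 or more in both libraries, against 44.6%. Fthl17a to Fthl17f and the light-chain receptor Scara5 had 0 counts in both libraries, and Timd2, a mouse receptor for heavy-chain ferritin, had 0 and 1 count.

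Ferritin genes have processed copies in the genome, which can draw reads away from the parent. For Fth1 only 1 annotated gene, Gm6977, shared at least 20% of its own 25-base words with the parent transcripts. It shared 26.2% and had 0 counts, and the expected counts of Fth1 were whole numbers. For Ftl1 there were 18 such genes, 16 of them in the files. Not all are processed copies: several are short miRNA entries, among them Gm22133, which lies within Ftl1. Only Ftl1-ps1, annotated as protein-coding, averaged 10 counts or more. Ftl1-ps1, on chromosome 13, shares 65.7% of its 25-base words with Ftl1 and had 197 and 251 expected counts, or 1.90 and 3.10 TPM. Ftl2-ps had 2.03 and 0 counts. Ftl1, Ftl1-ps1 and Ftl2-ps together held 5001 and 5045 counts, whole to within 0.01, although Ftl1 alone had fractional values. The copies' counts equalled 4.15% and 5.23% of the Ftl1 count, and moving them to Ftl1 gave a mean log2 ratio of Fth1 to Ftl1 of 0.17 ± 0.02 (SD, n = 2). How these reads divide between parent and copies cannot be told apart from these files.

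Fth1 had a single transcript in the files, which carries the iron responsive element. Of the 5 Ftl1 transcripts, Ftl1-201 held 60.3% and 65.0% of the gene's TPM. ENSMUST00000132205.3 (604 bases) held 23.4% and 29.8%, and ENSMUST00000124261.3 (710 bases) held 15.7% and 4.84%. Of the 5, 4 are not in the annotation release used for sequences, so only Ftl1-201 could be searched for the element, and it has one.

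The sensor genes lay below 1 TPM in both libraries on the deposited scale, and above most nuclear protein-coding genes in rank. By mean TPM Fbxl5 ranked 3948, Ireb2 4208 and Aco1 7609 of 21461, with rescaled means of 27.0 ± 8.34, 25.4 ± 9.23 and 6.81 ± 0.738 TPM (SD, n = 2). Ireb2 (ENSMUSG00000032293.7, chr9:54863789-54912530, plus strand) encodes IRP2, which is controlled by its degradation. It had 0.740 TPM in replicate 1 and 0.510 TPM in replicate 2, from 552 and 298 counts. Aco1 (ENSMUSG00000028405.9, chr4:40143081-40198338, plus strand) encodes IRP1, which serves as cytosolic aconitase when it holds an iron-sulfur cluster. It had 0.170 TPM in both libraries, from 48 and 66 counts, with 95% Poisson intervals of 0.125 to 0.225 TPM and 0.131 to 0.216 TPM. Aco1 was the lower of the pair in both libraries, and their ranges did not overlap.

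The log2 ratio of Aco1 to Ireb2 was -2.12 (95% counting interval -2.58 to -1.69) in replicate 1 and -1.58 (-1.99 to -1.20) in replicate 2. The mean was -1.85 ± 0.38 (SD, n = 2), and Ireb2 was 4.35-fold and 3.00-fold above Aco1. With a pseudocount of 1 TPM, which compresses low values, the mean log2 ratio was -0.47. The equal deposited TPM of Aco1 rests on different effective lengths: with the mean effective length of both libraries its level was 0.124 and 0.218 TPM. With that setting, an alternative chosen after seeing the data, the mean log2 ratio of Aco1 to Ireb2 was -1.89 ± 0.95 (SD, n = 2). In replicate 1, 48.1% of the deposited TPM of Aco1 was placed on Aco1-202, an annotated transcript without a coding sequence, from 5.36 counts. In replicate 2 all of it was placed on the protein-coding Aco1-201. By the posterior mean estimates Aco1-201 held 38.9% in replicate 1 and 70.9% in replicate 2.

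Fbxl5 (ENSMUSG00000039753.12, chr5:43744615-43821638, minus strand) encodes the iron-binding subunit of the ubiquitin ligase that marks IRP2 for degradation when iron is plentiful. It had 0.490 TPM in replicate 1 and 0.890 TPM in replicate 2, from 184 and 136 counts. The TPM was thus higher in the library with the lower count. The deposited TPM of replicate 2 placed 38.6% of the gene on Fbxl5-207, a transcript of 530 bases that was listed at 0 in replicate 1. With the mean effective length of both libraries Fbxl5 had 0.644 and 0.609 TPM, which averaged 0.627 ± 0.0249 TPM (SD, n = 2), an alternative chosen after seeing the data. Fbxl5 overlaps Bst1 on the opposite strand, which had 71 and 0 counts, and whether the counting used strand is not given in the sources used here.

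Of the 7 listed partners of FBXL5, NCOA4 and ferritin, 4 were detected, against 12.6% of nuclear protein-coding genes. On the rescaled TPM all 7 were at 1 or more in both libraries, against 44.6%. Cul1, the scaffold of the ligase, had 6.30 TPM in replicate 1 and 5.34 TPM in replicate 2, and its adaptor Skp1a had 2.76 and 2.86 TPM. Rbx1, the RING subunit, had 0.560 and 1.15 TPM. Herc2, the ligase of NCOA4, had 0.620 and 0.690 TPM. The autophagy genes Rb1cc1 and Tax1bp1, which act in ferritin turnover, averaged 3.21 ± 1.39 TPM and 3.14 ± 0.276 TPM (SD, n = 2).

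Ncoa4 (ENSMUSG00000056234.10, chr14:32159865-32179855, plus strand), the receptor that carries ferritin to the lysosome, was the third highest gene of the group. It had 7.19 TPM in replicate 1 and 6.46 TPM in replicate 2, from 3574 and 2578 counts, rank 452 by mean TPM. The log2 ratio of Fbxl5 to Ncoa4 was -3.88 (95% counting interval -4.10 to -3.66) in replicate 1 and -2.86 (-3.12 to -2.61) in replicate 2. The spread of that ratio over the libraries, 0.72 (SD, n = 2), was larger than the distance from either value to its interval's ends. With the mean effective length of both libraries, chosen after seeing the data, its SD was 0.03, around a mean of -3.44. The same setting widened the SD of the ratio of Aco1 to Ireb2 from 0.38 to 0.95.

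The split of Ncoa4 among its 8 transcripts differed between the libraries. Ncoa4-202 held 58.4% of the gene's TPM in replicate 1 and 98.2% in replicate 2, which is 4.20 and 6.34 TPM. Ncoa4-206, annotated as a target of nonsense-mediated decay, held 37.2% from 1379 counts in replicate 1 and was listed at 0 in replicate 2. By the posterior mean estimates Ncoa4-206 held 39.7% in replicate 1 and 5.58% in replicate 2, and Ncoa4-202 held 51.0% and 87.5%. A processed copy on chromosome 12, Gm6768, shares 97.3% of its 25-base words with Ncoa4 and had 84.9 and 91.4 counts. The counts of Ncoa4 and this copy summed to the whole numbers 3659 and 2669, and the copy's count equalled 2.37% and 3.54% of that of Ncoa4.

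The chaperones that hand iron to ferritin were expressed at similar levels. Pcbp2 (ENSMUSG00000056851.9, chr15:102470539-102500061, plus strand) had 4.89 TPM in replicate 1 and 4.85 TPM in replicate 2. Pcbp1 (ENSMUSG00000051695.6, chr6:86524492-86526321, minus strand), an intronless gene, had 3.50 and 4.04 TPM, from 785 and 706 counts. Pcbp1 was lower than Pcbp2 in both libraries.

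The log2 ratio of Pcbp1 to Pcbp2 was -0.48 (95% counting interval -0.61 to -0.36) in replicate 1 and -0.26 (-0.40 to -0.13) in replicate 2, a mean of -0.37 ± 0.15 (SD, n = 2). Pcbp2 shares its locus with Map3k12 and Gm26518 on the opposite strand. Its 1728 and 1349 expected counts were fractional, and those of all 3 genes summed to the whole numbers 1920 and 1542, a sum chosen after its values were seen. Map3k12 had 39.5 and 110 counts (replicate 1 and replicate 2), and Gm26518 had 152 and 82.5. Pcbp2-203 held 65.5% and 40.3% of the gene's TPM, and Pcbp2-201 held 34.5% and 53.7%, so that the larger of these transcripts was not the same one in the libraries.

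Among the 5 listed partners of the chaperones and PCBP relatives, 1 was detected, against 12.6% of nuclear protein-coding genes. On the rescaled TPM 3 of the 5 were at 1 or more in both libraries, against 44.6%. Ciao2a, which acts in cytosolic iron-sulfur protein maturation, had 2.86 TPM in replicate 1 and 2.34 TPM in replicate 2. Glrx3, a glutaredoxin with an iron-sulfur cluster, had 0.520 and 0.340 TPM, and its partner Bola2 had 0.220 and 0.590 TPM. The relatives Pcbp3 and Pcbp4 each averaged 0.045 TPM, the lowest of that list.

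Slc40a1 (ENSMUSG00000025993.6, chr1:45908068-45926523, minus strand) encodes ferroportin, the known cellular iron exporter. It had 4.46 TPM in replicate 1 and 4.76 TPM in replicate 2, from 1821 and 1446 counts, rank 697 by mean TPM. Its counting intervals, 4.26 to 4.67 TPM in replicate 1 and 4.52 to 5.01 TPM in replicate 2, overlapped those of Pcbp2, 4.66 to 5.13 TPM and 4.59 to 5.11 TPM. The log2 ratio of Fth1 to Slc40a1 was 3.74 (95% counting interval 3.67 to 3.82) in replicate 1 and 4.04 (3.95 to 4.12) in replicate 2, which is 13.4-fold and 16.4-fold. The mean was 3.89 ± 0.21 (SD, n = 2).

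Slc40a1-201 held 79.9% and 77.1% of the gene's TPM, and the retained-intron transcripts Slc40a1-202 and Slc40a1-208 together 14.65% and 12.04%. Red cell precursors of the mouse are known to make a ferroportin mRNA from an upstream promoter whose first exon lacks the iron responsive element. In the annotation 3 spliced transcripts begin at such an upstream first exon (chr1:45926424-45926519), with 814 bases between it and the nearest first exon of any other spliced transcript. They had 0 counts in replicate 1 and 8.62 counts in replicate 2, or 0% and 6.17% of the gene's TPM. All 3 are annotated only as far as exon 4, so reads of later exons could be assigned only to other transcripts. The unspliced Slc40a1-202 (chr1:45923732-45926523), with 96.0 and 45.9 counts, covers the whole upstream first exon, so reads within that exon could also be assigned to it, and it is among the transcripts with a match to the element. The transcripts with a match to the element held 94.6% of the TPM of Slc40a1 in replicate 1 and 89.1% in replicate 2.

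**Figure D2:**
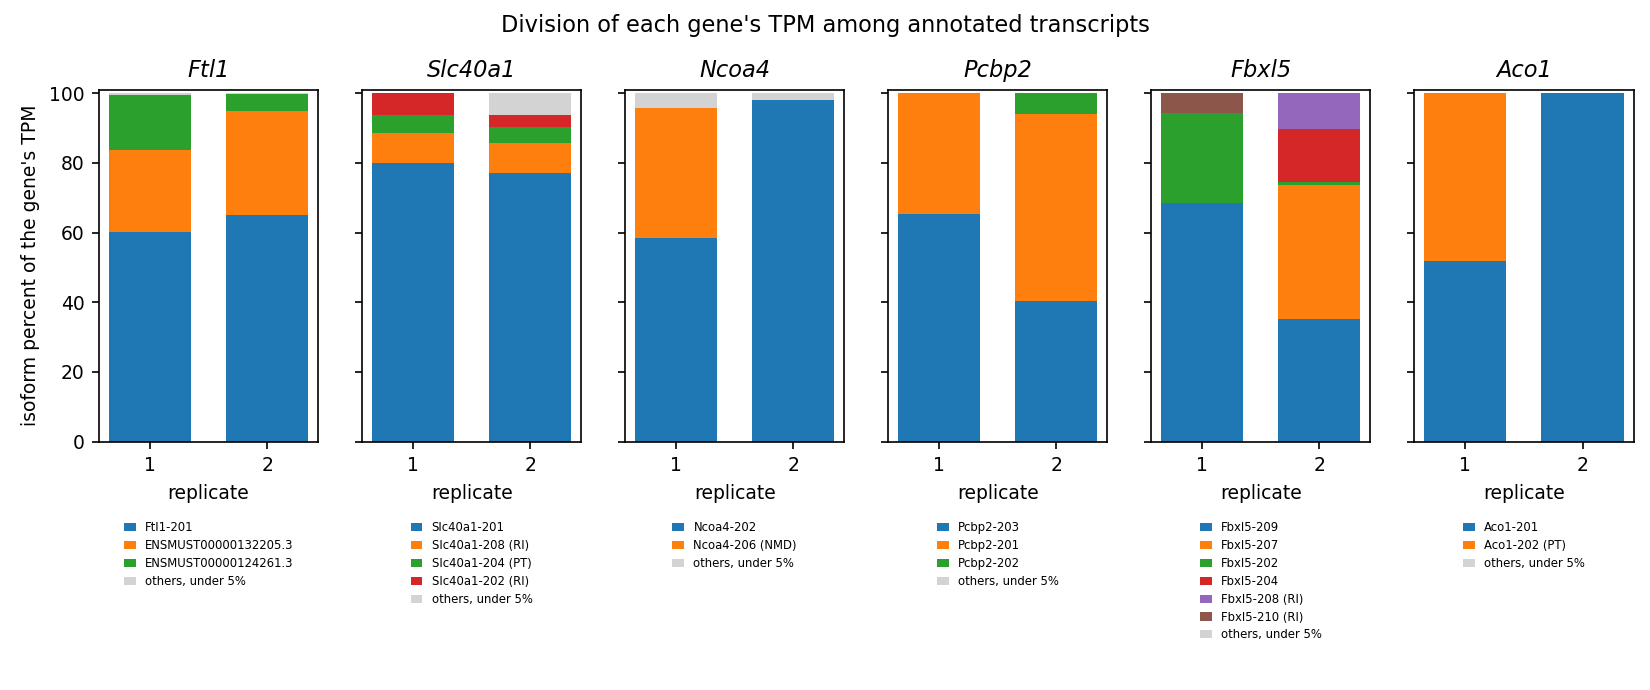
Stacked bars of the deposited isoform percent (share of a gene's TPM) of the 6 genes that had counts and more than 1 transcript, in replicate 1 and replicate 2. RI marks a retained intron, PT a processed transcript without a coding sequence and NMD nonsense-mediated decay. Slc40a1-201 held 79.9% and 77.1%, whereas Ncoa4-206 held 37.2% and 0%.

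Of 10 listed genes of ferroxidases and controllers of ferroportin, 0 reached 1 TPM in both libraries, against 12.6% of nuclear protein-coding genes. On the rescaled TPM, 4 of the 10 were at 1 or more in both libraries, against 44.6%, and Heph, Hephl1, Hamp and Hamp2 had 0 counts in both. Heph and Hephl1 encode ferroxidases, and Hamp encodes hepcidin, the liver hormone that removes ferroportin. Tfr2, a transferrin receptor relative that associates with the erythropoietin receptor, was the highest of the list with 0.460 and 0.730 TPM, followed by Hfe with 0.380 and 0.400 TPM. Erfe, which encodes the erythroid hormone that lowers hepcidin, had 0.120 and 0.480 TPM, and the ferroxidase gene Cp had 0.030 and 0.090 TPM.

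Of the 7 other mRNAs with a known iron responsive element, 5 were detected, against 12.6% of nuclear protein-coding genes. On the rescaled TPM 6 of the 7 were at 1 or more in both libraries, against 44.6%. Alas2 had 62.0 and 77.8 TPM, and Tfrc had 58.4 and 59.7 TPM, gene totals in the range of those of the ferritin genes. Much of both totals lay on transcripts not annotated as protein-coding. Alas2-204, a processed transcript without a coding sequence, held 57.0% and 60.2% of the TPM of Alas2. The retained-intron transcripts Tfrc-204 and Tfrc-205 held 48.6% and 22.8% of the TPM of Tfrc in replicate 1, and 45.4% and 22.0% in replicate 2. Slc11a2, the iron transporter DMT1, had 2.83 and 3.93 TPM, and Cdc42bpa had 1.75 and 2.20 TPM. Among 6 factors that control transcription of ferritin and ferroportin, 2 were detected, against 12.6% of nuclear protein-coding genes. These were Nfe2 with 10.5 and 10.2 TPM and Nfe2l2 with 2.36 and 2.32 TPM. On the rescaled TPM all 6 factors were at 1 or more in both libraries, against 44.6%. Bach1, a haem-binding repressor of ferritin genes, had 0.540 TPM in both libraries.

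**Figure D3:**
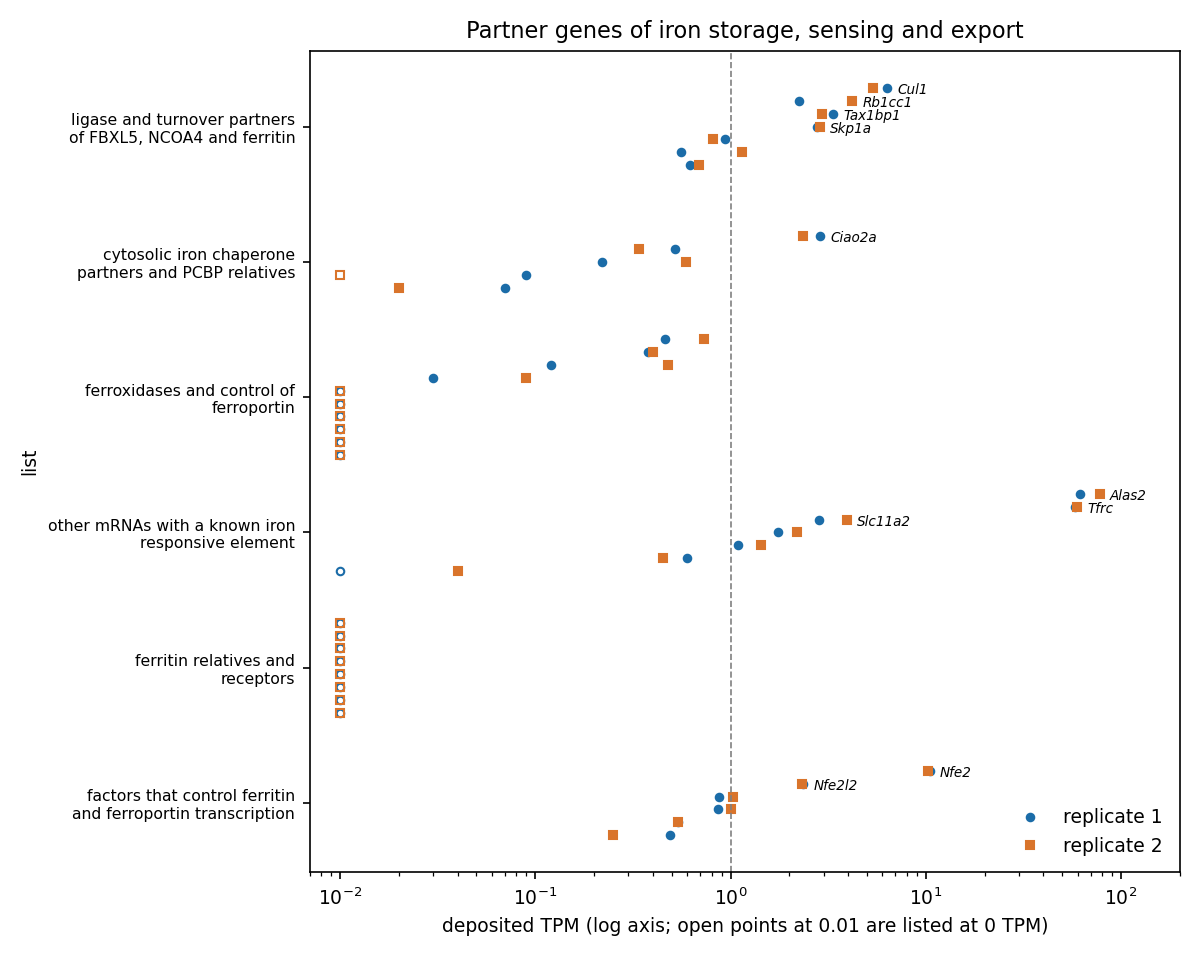
Deposited TPM (log axis) of the genes of 6 pathway lists in replicate 1 (circles) and replicate 2 (squares), 1 row per gene, with the dashed line at 1 TPM and open symbols at 0.01 for values listed at 0. Labels name genes averaging above 2 TPM; Alas2 and Tfrc stand highest, and 7 of the 8 ferritin relatives and receptors had 0 counts in both libraries.

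The order of the 10 genes by mean TPM was Fth1, Ftl1, Ncoa4, Pcbp2, Slc40a1, Pcbp1, Fbxl5, Ireb2, Aco1 and Ftmt. It held in both libraries except for Fbxl5 and Ireb2. Fbxl5 was below Ireb2 in replicate 1 and above it in replicate 2, so their order did not exceed the spread between libraries. By posterior mean TPM, Slc40a1 was above Pcbp2 in replicate 2 (4.98 against 4.82 TPM) and below it in replicate 1 (4.61 against 4.87 TPM).

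Between the replicates, the expected counts were compared as log2 ratios of replicate 1 over replicate 2, centred on the median of genes averaging at least 20 counts. Of the 9 genes above that filter, 0 differed by more than 2-fold, against 18.4% of 9820 genes. That share depends on depth: among genes averaging at least 100 counts it was 5.39% of 5569, against 0 of 8 iron genes. Ireb2 and Aco1 were the furthest apart, in opposite directions, with centred log2 ratios of 0.67 (95% counting interval 0.47 to 0.88) and -0.67 (-1.24 to -0.12). Fth1 and Ftl1 were lower in replicate 1, with -0.24 (-0.29 to -0.19) and -0.21 (-0.27 to -0.15), and Ncoa4 was higher, with 0.26 (0.18 to 0.33). Pcbp2 and Slc40a1 had 0.14 and 0.12, and the intervals of Fbxl5 (-0.11 to 0.55) and Pcbp1 (-0.21 to 0.09) included 0. With 1 library per replicate no test was possible, and the interval is a counting interval only.

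**Figure D4:**
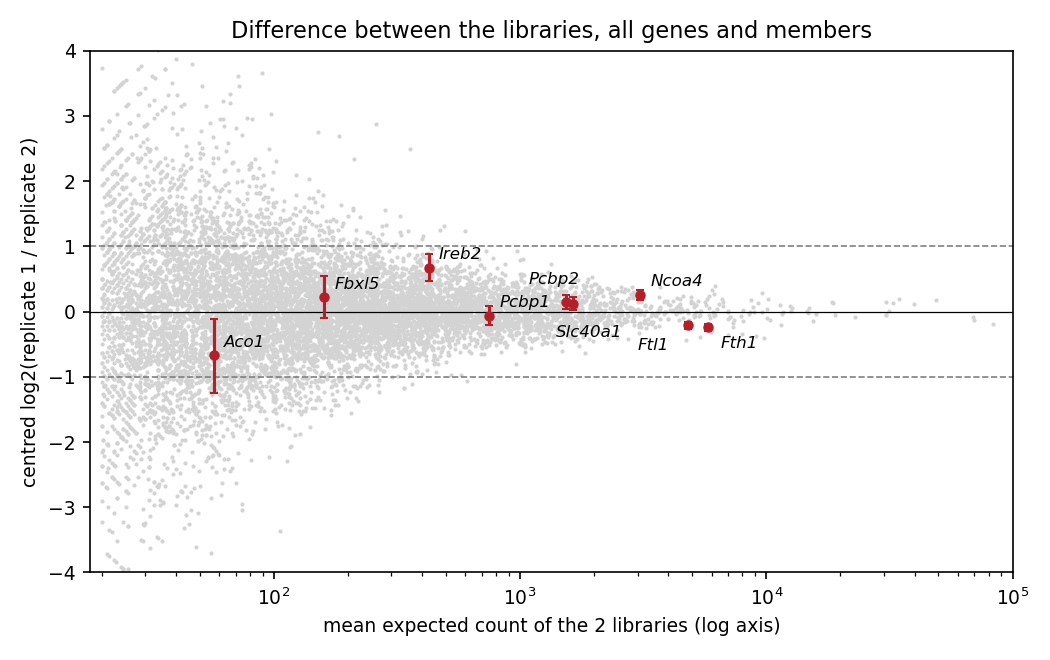
Centred log2 ratio of expected counts, replicate 1 over replicate 2, against the mean count (log axis) for genes averaging at least 20 counts (grey) and 9 iron genes (red, with 95% counting intervals). Dashed lines mark 2-fold; 117 genes lie outside the axes, and none of the 9 iron genes passes the dashed lines.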

How the data were processed

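Total RNA-seq of 2 CFU-Ery libraries was analysed from 1 gene and 1 transcript table each. The authors quantified every library by itself against mm10 and GENCODE M4, as a description deposited with the files states. Which aligner and quantifier they used, and whether strand was used, is not given in the sources used here. Per the file headers, the deposited expected counts are model estimates and can be fractional. The deposited TPM is a length-scaled level with a fixed total over all entries. The deposited FPKM was not used. By the headers, the authors' isoform percent is a transcript's share of its gene's TPM. The deposited credibility bounds were read as a score and not used.

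Genes were named through GENCODE M21 on GRCm38, where 42462 of 43346 Ensembl genes matched. Entries that were neither Ensembl genes nor spike-in sequences held 0 and 8 counts. Spike-in entries, told by name, were left out of that sum. The 10 genes, the lists and the alternatives were chosen with earlier results of these data known. All 10 genes were named, with the 4 highest and 2 lowest of each list as needed, and related genes sharing at least 20% of their 25-base words with a mean of at least 10 counts. Further related or overlapping genes, and list genes outside that rule, were named after their values were seen. Some listed genes are not reported here by name. Detection meant at least 1 TPM in both libraries. Ratios carry 95% exact binomial intervals, levels 95% exact Poisson intervals, and a count of 0 a floor of 3 counts; all cover counting error only. Replicate ratios used expected counts plus 0.5, and the count was centred on the median, with the procedure tested on simulated data. Expected counts were rounded to whole numbers to compute edgeR and DESeq2 scaling factors. The software was edgeR 4.0.16 and DESeq2 1.42.0 in R 4.3.3, with scipy 1.17.1 and pandas 2.3.3 in Python 3.11.15.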

Additional observations from a re-analysis of the deposited data

How the results depend on the processing

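All 5 ratios kept their direction under every alternative run. Ratios of expected counts, not scaled by length, gave log2 means of 0.28 for Fth1 to Ftl1, -2.85 for Aco1 to Ireb2, -1.04 for Pcbp1 to Pcbp2, -4.26 for Fbxl5 to Ncoa4 and 1.84 for Fth1 to Slc40a1. A pseudocount of 1 TPM gave -0.47 for Aco1 to Ireb2, -2.22 for Fbxl5 to Ncoa4 and 3.63 for Fth1 to Slc40a1. Posterior mean TPM gave -1.35 for Aco1 to Ireb2, and adding the copies' reads gave 0.17 for Fth1 to Ftl1. The cause of the posterior mean shift was not tested. Detected genes numbered 3 at 5 TPM, 7 at 0.5 TPM and 6 with either replicate left out. The share of all nuclear protein-coding genes was not computed for these settings, so nothing is read from these counts about the group. With 1 replicate left out, the ratios ranged from 0.22 to 0.25, -2.12 to -1.58, -0.48 to -0.26, -3.88 to -2.86 and 3.74 to 4.04, in the order above. With TMM factors, DESeq2 size factors, no filter, a minimum of 100 counts or log2(TPM + 1), 0 of the tested iron genes passed 2-fold, against 1813 and 1814 of 9820 genes, 6331 of 15410, 300 of 5569 and 62 of 9820 genes overall. With posterior means, 8 of 10 gene levels and 15 of 16 transcript shares stayed within 1 SD. The exceptions were Aco1 (0.24 TPM), Ftmt (0.01 TPM) and Slc40a1-201 (74.8%). These tallies depend on the spread of 2 libraries. That SD was 0 for the levels of Aco1 and Ftmt. It was 34.0 for the share of Aco1-201, which went from 76.0% to 54.9%. Fth1-201, Ireb2-201 and Pcbp1-201 are the only transcripts of their genes in the files, so their shares of 100% could not change. No paired analysis was possible because there is 1 group.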
